A study of Schizosaccharomyces pombe with 16 samples.

Results

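The regions described here lie immediately downstream of a transcribed unit, on its own strand, in gaps where the next transcribed unit runs towards them on the opposite strand. They were read on tiling arrays of the fission yeast *Schizosaccharomyces pombe*, whose probes alternate between the DNA strands at a nominal spacing of 40 bases. The regions were chosen by the signal of the control channel alone: a transcribed unit was any stretch of 6 or more consecutive same-strand probes in which this signal, as a mean of 16 arrays and after a 5-probe running median, reached a threshold of 7.9 on the log2 scale. A region consisted of the 4 probes of the unit's strand among the 8 probe numbers beyond its end, about 320 bases, and no unit of either strand was allowed in these 8 numbers. Of the 966 such downstream regions, 292 had a convergent neighbour and 674 a tandem one, that is, a neighbour on the same strand. The 292 regions are the flanks of 146 gaps, with 1 region on each strand of every gap, and belong to 7592 features of 2540 units that were tested together. These features were the units themselves, their antisense strands, the downstream regions and the antisense regions upstream of units. All of them passed the requirement of 3 measured probes.

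RNA polymerase II does not stop at the end of a gene but continues past the poly(A) site until termination. Where genes are convergent, transcripts that extend beyond their own gene run antisense to the neighbour. The nuclear exosome, an RNA-degrading complex with Rrp6 as one of its nucleases, removes many such unstable RNAs, and short sense transcripts downstream of genes have been called 3′ intergenic transcripts (3′IGTs). In fission yeast, exosome cofactors include TRAMP, whose poly(A) polymerase is Cid14, and MTREC, a complex around the zinc-finger protein Red1 and the RNA helicase Mtl1.

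The study compared RNA of 9 mutants with RNA of control strains to ask which cofactors the exosome needs for its RNA classes. The deletion mutants were *rrp6Δ*, set against a wild-type strain of its own, *red1Δ*, *cid14Δ*, *iss10Δ* and *rmn1Δ*, set against a wild-type strain that they shared, *pab2Δ* and *sen1Δ*, each against a further wild-type strain, and *mmi1Δ mei4-P572* against *mei4-P572*, so that both strains of this pair carried the *mei4-P572* mutation. *mtl1-17* is a temperature-sensitive allele, and its control carried a Flag-tagged *mtl1*. The paper lists the *mtl1-17* strain with the same Flag tag. Both strains of this pair were shifted to 37 °C for 4 h after growth at 23 °C, and all others grew at 30 °C. Of the 9 mutants, 7 had 2 arrays from biological replicates, and *rmn1Δ* and *mmi1Δ mei4-P572* had 1 array each and no replicate check. Pab2, a nuclear poly(A)-binding protein, Rmn1, Iss10 and the RNA-binding protein Mmi1 are MTREC subunits, and Sen1 is a helicase known from transcription termination. Mutant cDNA carried Cy5 and control cDNA Cy3 on every array, with no dye swap, so any dye bias stays in the ratios and cancels only in differences between mutants.

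The files pair no probe with a gene or a sequence, and regions are named by their probe nearest the unit. Odd probe numbers were read as the strand that runs upward and even numbers as the strand that runs downward. In the mutants whose deleted gene lies on chromosome 2 or 3, the longest run of same-strand probes with a log2 ratio under −2 on the mutant's arrays and on no other array gave a check of label and strand. It held 8 even probes in *pab2Δ*, 21 odd probes in *rmn1Δ* and 13 even probes in *mmi1Δ mei4-P572*, with means of −5.12, −5.78 and −4.99, while the locus tags place *pab2* and *mmi1* on the reverse strand and *rmn1* on the forward strand. No other deletion was checked.

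The rule chose dim regions. In the control channel, 24.2% to 66.4% of the region probes of an array were well above background (median 39.3%), and in the mutant channel 24.2% to 80.7% (median 48.8%). The scanner software set 9.25% to 42.0% of their ratios to 0. Because the rule used the control channel, which is also the denominator of every ratio, the low control signal of the regions is not a finding. When the units and regions were defined again without the control channels of the mutant tested, 164 of 310 regions were called higher in *rrp6Δ* (52.9%, against 41.96% of all features of that fit), by the same limma test as below. It was 111 of 296 in *red1Δ* (37.5%, against 29.1%) and 109 of 282 in *pab2Δ* (38.7%, against 24.9%). In *mtl1-17* it was 126 of 314 (40.1%, against 21.8%) and in *cid14Δ* 94 of 284 (33.1%, against 13.3%).

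At the edges of the rule, 266 regions had a smoothed control signal below the threshold at all 4 probes, the highest at 7.877, and 26 held a probe above it in a run too short for a unit. The 42 regions in gaps of 8 or 9 numbers had a median log2 ratio of 0.60 in *rrp6Δ* and 0.21 in *red1Δ*. The 100 regions left out because their gap held 6 or 7 numbers had 0.71 in *rrp6Δ* and 0.19 in *red1Δ*.

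RNA of the regions was higher than in the control in most mutants, with the largest shift in *rrp6Δ*. On the log2 scale, the median over the 292 regions was 0.67 and 0.72 on the *rrp6Δ* arrays, 0.46 and 0.36 on the *mtl1-17* arrays and 0.35 and 0.23 on the *cid14Δ* arrays. It was 0.13 and 0.33 on the *red1Δ* arrays and 0.25 and 0.21 on the *pab2Δ* arrays. In the 5 mutants the median was thus above 0 on every array, and only in *rrp6Δ* were both medians above those of all other arrays. The replicate arrays of *red1Δ* lay further apart than those of *pab2Δ*, with SDs of their medians of 0.15 and 0.025 (n = 2 each).

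In the remaining mutants the shift was smaller. The median was 0.26 on the *mmi1Δ mei4-P572* array, 0.13 on the *rmn1Δ* array and 0.14 and 0.090 on the *sen1Δ* arrays. In *iss10Δ* it was −0.083 and 0.14. Centring subtracted the mean over the sense units, also from ratios that the scanner software had set to 0. That mean was 0.084 on *iss10Δ* replicate 1 and −0.14 on *sen1Δ* replicate 1. The medians of these arrays, −0.083 and 0.14, are thus about what a ratio set to 0 became. Their sign and size cannot be read as a change in RNA. On *sen1Δ* replicate 2 and on the *mmi1Δ mei4-P572* array that mean was −0.067 and −0.097. A ratio set to 0 came to lie above 0 there as well, which limits the reading of the medians of 0.090 and 0.26. The median over all 7592 features was between −0.084 and 0.31 on the 16 arrays, and the lowest was that same offset on *iss10Δ* replicate 1. The median of the convergent regions exceeded that of the 674 tandem regions on 9 of 16 arrays, but on 5 with the median over the probes of a region, 2 with a unit threshold 1 log2 unit lower and 1 with the authors' table of the series. No order of these lists can be read from this, and no test was run between them.

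**Figure D1:**
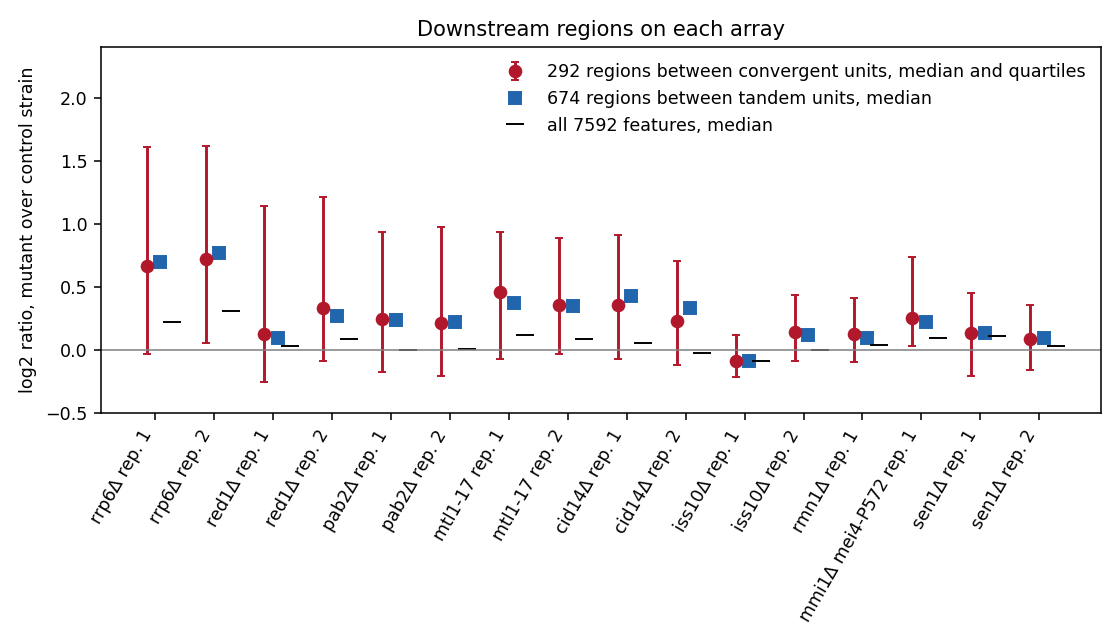
Log2 ratio of mutant over control strain on each of the 16 arrays, as the median and quartiles of the 292 regions between convergent units (circles and bars), the median of the 674 regions between tandem units (squares) and the median of all 7592 features (dashes). The *rrp6Δ* arrays have the highest medians of the convergent regions, 0.67 and 0.72, and the tandem medians lie close to the convergent ones on every array.

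Single regions were then tested with limma over all 7592 features, with Benjamini-Hochberg adjustment and an adjusted p under 0.05 as the threshold. In *rrp6Δ*, 158 of the 292 regions were called higher (54.1%, against 42.1% of all features) and 20 lower (6.85%, against 14.4%). In *red1Δ*, 110 were higher (37.7%, against 29.2%) and 26 lower (8.90%, against 12.1%). In *pab2Δ*, 103 were higher (35.3%, against 24.7%) and 25 lower (8.56%, against 13.6%). The called regions were therefore mostly higher, and the share called higher was above that over all features in these mutants. All features include the sense units, on whose mean each array was centred, so they are not a background of like regions.

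In *mtl1-17*, 117 regions were higher (40.1%, against 21.7% of all features) and 11 lower (3.77%, against 5.58%). In *cid14Δ*, 95 were higher (32.5%, against 13.3%) and 10 lower (3.42%, against 6.89%). The share of all features called higher was lowest in *cid14Δ* among these 5 mutants. In tandem regions the shares called higher were 59.9% in *rrp6Δ*, 33.1% in *red1Δ*, 33.2% in *pab2Δ*, 37.8% in *mtl1-17* and 33.2% in *cid14Δ*, and whether they differ from the convergent ones was not tested. Counts fell when 1 array was left out, to 66 in *mtl1-17* without its replicate 1, 73 without its replicate 2, 68 in *pab2Δ* without its replicate 2 and 54 in *cid14Δ* without its replicate 1.

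Fewer regions were called in the other mutants. In *mmi1Δ mei4-P572*, 37 were higher (12.7%, against 3.64% of all features) and 5 lower (1.71%, against 2.31%), on a single array. In *sen1Δ*, 26 were higher (8.90%, against 5.22%) and 14 lower (4.79%, against 3.07%), and 11 and 13 were higher without its replicates 1 and 2. In *iss10Δ*, 10 were higher (3.42%, against 1.05%) and 0 lower (against 0.119%), with 4 lower at an unadjusted p under 0.05 in limma. In *rmn1Δ*, 2 were higher (0.685%, against 1.38%) and 1 lower (0.342%, against 0.171%). For the mutants with a single array the test takes that array to vary like the others.

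**Figure D2:**
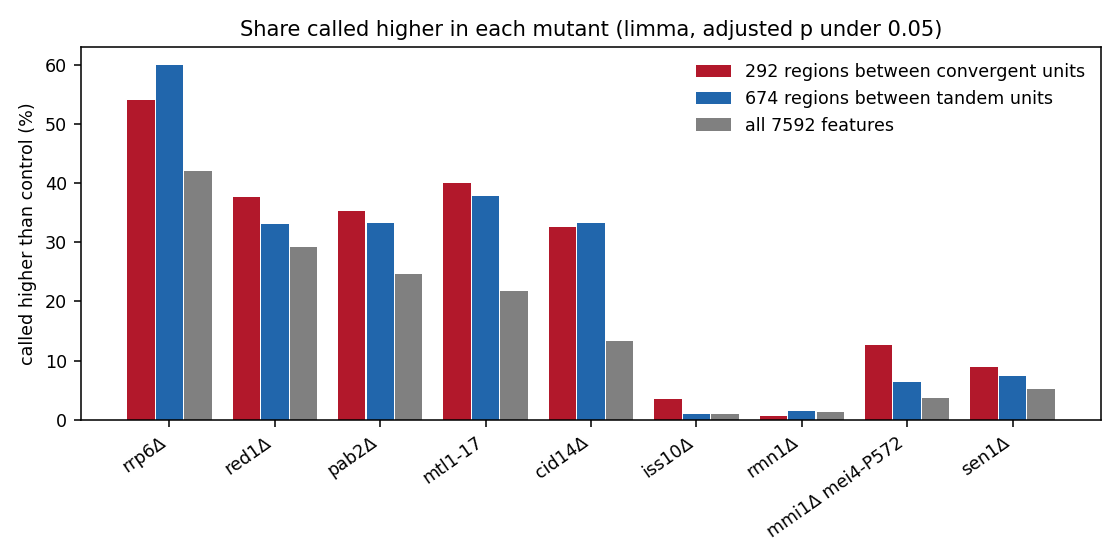
Percentage of features called higher than in the control strain in each mutant (limma, adjusted p under 0.05), for the 292 regions between convergent units, the 674 regions between tandem units and all 7592 features. The bars of the convergent regions run from 54.1% in *rrp6Δ* to 0.685% in *rmn1Δ*, and in *cid14Δ* they reach 32.5% where all features reach 13.3%.

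Some regions had too little signal for a full ratio. Of the 158 regions called higher in *rrp6Δ*, 146 had probes well above background in both channels, 9 had none in the control channel, so that their rise is a lower bound, and 3 had none in either. Of the 110 called higher in *red1Δ*, 89 were measured in both channels, as were 84 of 103 in *pab2Δ*, 116 of 117 in *mtl1-17* and 81 of 95 in *cid14Δ*.

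A rise downstream may come with a rise of the whole unit. In *rrp6Δ*, the unit upstream of the 158 regions called higher was itself called higher in 45 cases, lower in 27 and not called in 86. In *mtl1-17*, the unit of the 117 higher regions was called higher in 16 cases and lower in none, and not called in 101. In *red1Δ*, the unit was higher for 45 of the 110 higher regions, and in *cid14Δ* for 25 of 95. Over the units of all 292 regions, 62 were called higher in *rrp6Δ* (21.2%), 22 in *mtl1-17* (7.53%), 53 in *red1Δ* (18.2%) and 35 in *cid14Δ* (11.99%), and 76 were called lower in *rrp6Δ* (26.03%).

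The ratio of each region minus that of its own unit, which does not depend on the centring of an array, was tested over the 966 downstream regions. It was called higher for 161 convergent regions in *rrp6Δ* (55.1%, against 54.8% of all 966 regions), 111 in *red1Δ* (38.0%, against 36.5%) and 93 in *pab2Δ* (31.8%, against 31.3%). It was higher for 95 in *mtl1-17* (32.5%, against 34.2%) and for 97 in *cid14Δ* (33.2%, against 32.5%). These shares lie within 2 percentage points of those over all downstream regions, of which the convergent ones are a part. In *mmi1Δ mei4-P572* it was higher for 30 regions (10.3%, against 6.94%), on 1 array, in *sen1Δ* for 16 (5.48%, against 4.35%), in *rmn1Δ* for 3 (1.03%, against 0.828%) and in *iss10Δ* for 2 (0.685%, against 0.311%).

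Regions that were called lower than their own unit were fewer. There were 13 in *rrp6Δ* (4.45%, against 5.38% of the 966), 13 in *red1Δ* (4.45%, against 5.9%), 19 in *pab2Δ* (6.51%, against 5.9%), 4 in *mtl1-17* (1.37%, against 1.55%) and 7 in *cid14Δ* (2.397%, against 2.07%). In *sen1Δ* there were 9 (3.08%, against 2.28%), and in *mmi1Δ mei4-P572*, *iss10Δ* and *rmn1Δ* 1 each (0.342%, against 0.518%, 0.311% and 0.104%). The count of regions higher than their own unit fell to 70 in *red1Δ* without its replicate 2, 56 and 54 in *pab2Δ* without replicates 1 and 2, 47 and 52 in *mtl1-17* without replicates 1 and 2, 40 in *cid14Δ* without replicate 1 and 0 in *sen1Δ* without replicate 1.

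The highest mean within the region lay at different probes. In *rrp6Δ*, the mean log2 ratio over the regions was 0.29 at the last probe of the unit and 0.55, 0.88, 1.01 and 1.00 at the 4 probes of the region, counted from the unit. In *red1Δ* it was 0.49, 0.58, 0.67 and 0.52, and in *mtl1-17* 0.40, 0.56, 0.57 and 0.41. In *pab2Δ* it was 0.51, 0.47, 0.42 and 0.30, with the highest mean at the probe next to the unit on both arrays. In *cid14Δ* it was 0.48, 0.47, 0.46 and 0.34, and its arrays differed. Replicate 1 was highest at the third probe (0.55) and replicate 2 at the probe next to the unit (0.50). The means of these mutants lay closest together at the probe next to the unit, and at the fourth probe that of *rrp6Δ* was the highest.

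The step at the unit end shares the control signal with the rule that placed that end. Over the tandem regions the *rrp6Δ* means were 0.63, 1.02, 0.99 and 0.89, and the *red1Δ* means 0.35, 0.52, 0.39 and 0.30. The SD between the 2 arrays at the third probe of the convergent regions was 0.033 in *rrp6Δ* and 0.070 in *red1Δ*.

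On the same strand, the profile was followed across the partner unit, where it runs antisense to the partner. In *rrp6Δ* the mean was 0.77 at the first probe inside the partner and 0.30 at the fifth, and stayed between 0.28 and 0.34 up to the tenth. In *red1Δ* it was 0.31 at the first probe and −0.073 at the fifth, and in *cid14Δ* 0.20 and −0.097. In *pab2Δ* it was 0.074 at the first probe and −0.28 at the tenth. The mean thus remained above 0 across the first 10 probes of the partner in *rrp6Δ*, *mmi1Δ mei4-P572* and *sen1Δ* and not in the other mutants. No test was run on these positions. The sense-unit mean that centring subtracted was −0.20 and −0.28 on the *rrp6Δ* arrays and −0.097 on the *mmi1Δ mei4-P572* array. On the *sen1Δ* arrays it was −0.14 and −0.067. A ratio set to 0 thus came to lie above 0 on these arrays. Remaining above 0 can therefore not be read as a rise of RNA.

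**Figure D3:**
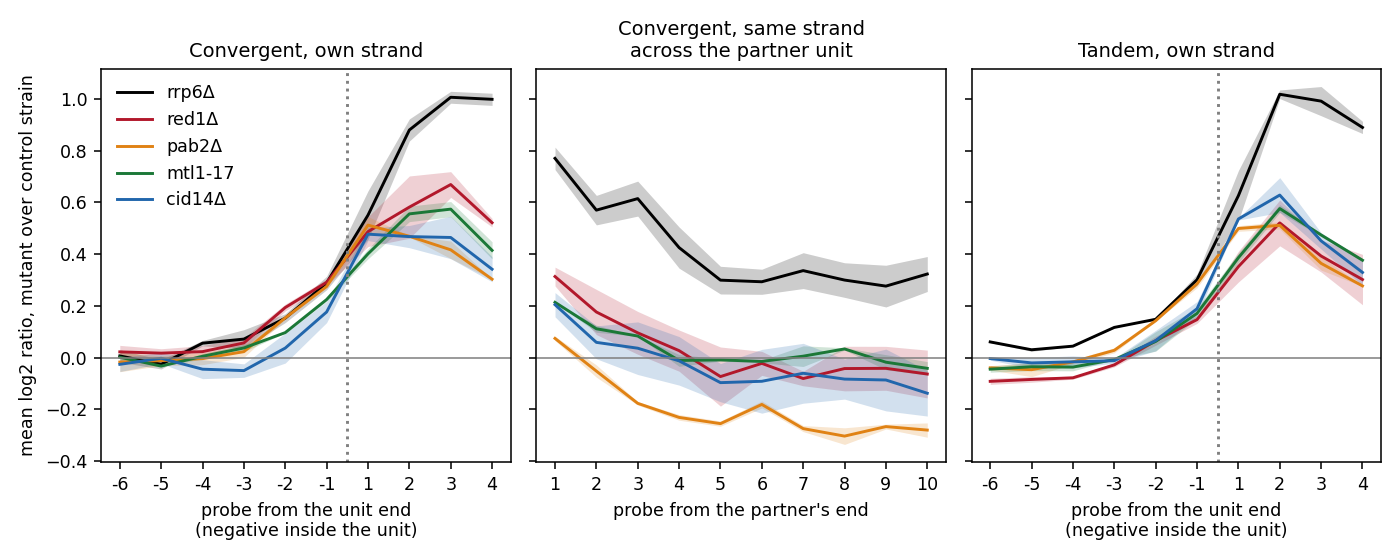
Mean log2 ratio of mutant over control strain by probe position in 5 mutants, along the unit end and region of convergent gaps (left), across the partner unit on the same strand (middle) and along the unit end and region of tandem gaps (right). Lines are means of 2 arrays and bands span the 2 arrays. In *rrp6Δ* the convergent profile reaches 1.01 at the third probe of the region and 0.30 at the fifth probe of the partner.

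The regions were then divided by the distance between the convergent units. The median log2 ratio in *rrp6Δ* was 0.66 in the 82 regions of gaps of 8 to 11 numbers, 0.72 in the 64 regions of 12 to 15, 0.80 in the 80 regions of 16 to 31 and 0.52 in the 66 regions of 32 to 426. In *pab2Δ* it was 0.41, 0.18, 0.19 and 0.14 over the same classes, and in *mtl1-17* 0.48, 0.34, 0.47 and 0.17. In *pab2Δ*, 34 of the 82 regions in the shortest gaps and 20 of the 66 in the longest were called higher. These classes were compared as a description, with no test. In gaps under 16 numbers, which hold 146 of the regions, the windows of the 2 strands overlap in position.

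Within a gap, both regions could rise. In *rrp6Δ*, both regions were called higher in 42 of the 146 gaps, 1 region in 74 and neither in 30, and in 13 gaps 1 region was higher and the other lower. In *red1Δ*, both were higher in 21 gaps and 1 in 68, and in *cid14Δ* both in 17 and 1 in 61. On the opposite strand of the same 8 numbers, the median log2 ratio was 0.74 ± 0.079 in *rrp6Δ* and 0.13 ± 0.076 in *cid14Δ* (SD, n = 2 arrays each), where the regions themselves had 0.69 ± 0.036 and 0.29 ± 0.085. In gaps under 16 numbers the opposite strand overlaps the window of the partner.

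**Figure D4:**
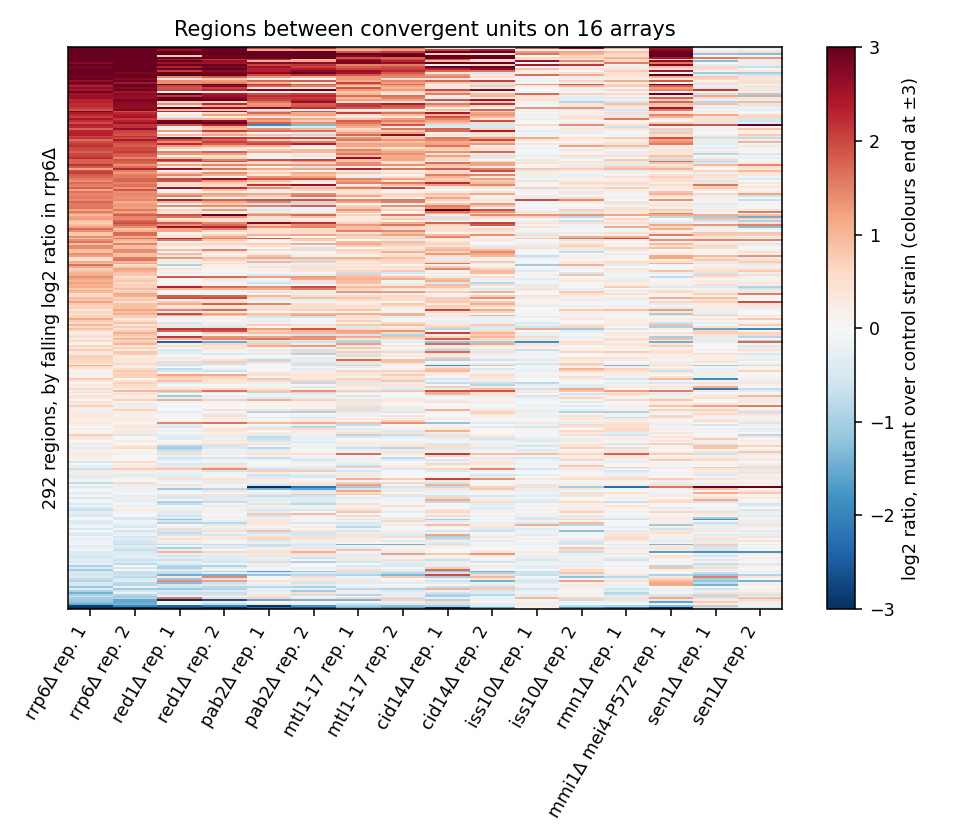
Log2 ratio of mutant over control strain of the 292 regions (rows, ordered by their mean in *rrp6Δ*) on the 16 arrays (columns), with colours ending at ±3. In *rrp6Δ*, 201 regions lay above 0 on both arrays and 57 below 0 on both, and the *iss10Δ*, *rmn1Δ* and *sen1Δ* columns are paler than those of *rrp6Δ* at the top.

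The regions called higher in *rrp6Δ* followed bright units, with a median log2 control signal of 10.3 in their units, against 8.87 in the units of the 20 regions called lower and 9.56 in those not called. In *red1Δ* these medians were 10.1, 8.82 and 9.97. The control signal of the unit took part in the rule, so this is a description. Over the 9 mutants, 94 regions were called higher in none and 7 in 7 of them, the most for any region. Since *red1Δ*, *cid14Δ*, *iss10Δ* and *rmn1Δ* share a control strain, agreement between them is not independent.

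The regions with the largest changes are described by their response in *cid14Δ*. That response was part of how some of them were chosen, so this order is no result. In region sp40c_63933, the log2 ratio was 5.27 and 5.32 on the *rrp6Δ* arrays, 5.44 and 5.45 on the *red1Δ* arrays and 2.02 and 2.21 on the *pab2Δ* arrays. It was 1.80 and 2.75 in *iss10Δ*, 1.498 and 1.547 in *mtl1-17* and 2.50 in *mmi1Δ mei4-P572*. In *cid14Δ* it was 0.34 and −0.18 and in *sen1Δ* −0.13 and −0.28. The arrays of *cid14Δ* and *sen1Δ* thus lay around 0 and did not overlap those of the other mutants. The fitted log2 ratio was 5.30 in *rrp6Δ* (SE 0.19, adjusted p = 2.8e-09, limma) and 5.44 in *red1Δ* (adjusted p = 5.1e-09), and the difference of *red1Δ* minus *cid14Δ* was 5.36 (SE 0.27, adjusted p = 5.5e-07). Its own unit was called higher as well, with a log2 ratio of 4.28 in *rrp6Δ* and 4.55 in *red1Δ*, while the partner unit was not called in either (0.14 and −0.36). Of the region's 8 control readings in each mutant, 3 in *red1Δ* and 5 in *cid14Δ* were well above background. Its ratios in these 2 mutants are thus in part bounds.

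Region sp40c_68715 lies in a gap of 10 numbers. Its log2 ratio was 3.95 and 4.38 in *rrp6Δ*, 5.04 and 4.37 in *red1Δ* and 3.40 and 3.80 in *pab2Δ*. In *mtl1-17* it was 3.11 and 2.93 and in *mmi1Δ mei4-P572* 3.03. It was 0.75 and 0.53 in *cid14Δ* and −1.16 and −1.27 in *sen1Δ*. It was called higher in 7 mutants and lower in *sen1Δ* (−1.22, adjusted p = 0.0031, limma), where its own unit was lower as well (−1.15). The difference of *red1Δ* minus *cid14Δ* was 4.06 (SE 0.27, adjusted p = 3.2e-06, limma). Its own unit had 2.98 in *red1Δ* and −0.52 in *cid14Δ*, where the unit was not called. Relative to its own unit, the region differed between the 2 mutants by 0.56, which did not pass the threshold (adjusted p = 0.25, limma). Of its 8 control readings in each mutant, only 2 in *red1Δ* and 4 in *cid14Δ* were well above background. In *sen1Δ*, only 1 of 8 mutant readings was. The difference of 4.06 and the fall in *sen1Δ* thus rest in part on bounds.

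Region sp40c_13520 had the largest rise in *iss10Δ*, with 2.45 and 2.11 on its arrays. It had 3.38 and 3.004 in *rrp6Δ*, 3.24 and 3.26 in *red1Δ* and 0.18 and 0.70 in *cid14Δ*. The ratios in *iss10Δ* exceeded those in *cid14Δ* on every array, and the fitted values were 2.28 in *iss10Δ* (adjusted p = 5.9e-06, limma) and 0.44 in *cid14Δ* (adjusted p = 0.056). With a mean log2 control signal of 9.32 it was also the brightest of the named regions, while its smoothed control signal stayed at or below 7.64.

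Other named regions were high in *cid14Δ* as well. In region sp40c_13707, the log2 ratio was 4.29 and 3.49 in *rrp6Δ*, 3.86 and 4.16 in *pab2Δ*, 3.21 and 3.12 in *red1Δ* and 3.02 and 3.58 in *cid14Δ*. It was 1.92 and 1.75 in *mtl1-17* and 1.55 and 1.31 in *sen1Δ*, and all of these mutants passed the threshold. Its own unit was called in none of these mutants, with fitted log2 ratios between −0.13 and 0.14. The region was called higher than its own unit in *rrp6Δ* by 3.76 and in *cid14Δ* by 3.15 (limma, with adjusted p = 0.0090 or lower in each of these 6 mutants). Only 1 of 8 control readings of the region was well above background in each of *red1Δ*, *pab2Δ* and *cid14Δ*. The ratios of the region in these mutants, and the 3.15 in *cid14Δ*, are thus largely bounds.

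In region sp40c_119025, the log2 ratio was 2.73 and 3.68 in *rrp6Δ*, 2.57 and 2.51 in *red1Δ*, 2.80 and 2.62 in *mtl1-17* and 3.18 and 3.27 in *cid14Δ*. It was 0.020 and 0.45 in *iss10Δ* and 0.024 and 0.32 in *sen1Δ*, so that neither overlapped the 4 mutants above. Its own unit was not called in any of these. In *rmn1Δ* it was 1.57 on the single array (adjusted p = 0.017, limma), a call that was lost with a window of 12 probe numbers (0.75).

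Region sp40c_112116 was the highest in *pab2Δ*, with 5.52 and 5.24 on its arrays. It had 5.03 and 4.74 in *rrp6Δ*, 4.33 and 4.33 in *red1Δ*, 3.17 and 3.69 in *cid14Δ* and 1.89 and 2.13 in *mtl1-17*. It was called higher in 7 mutants, and the difference of *red1Δ* minus *cid14Δ* was 0.90 (SE 0.21, adjusted p = 0.0070, limma). Its own unit rose too, with log2 ratios of 3.45 in *pab2Δ* and 2.33 in *rrp6Δ*.

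In region sp40c_9300, *cid14Δ* was the highest, with a log2 ratio of 4.20 and 4.24, and *red1Δ* had 0.79 and 2.89. The *red1Δ* arrays thus lay far apart and below those of *cid14Δ*. The difference of *red1Δ* minus *cid14Δ* was −2.38 (SE 0.50, adjusted p = 0.0038, limma). Its own unit had 3.84 in *red1Δ* and 2.19 in *cid14Δ*, so that the region was called lower than its unit in *red1Δ* (−2.01) and higher in *cid14Δ* (2.03). Of the 8 control readings of the region in each mutant, only 2 in *red1Δ* and 1 in *cid14Δ* were well above background. The ratios of the region are thus largely bounds, and neither the difference of −2.38 nor the comparison with the unit is firm. In *rrp6Δ* the region had 3.63 and 4.34, and in *pab2Δ*, where no control probe was well above background, it was at least 5.05-fold higher (adjusted p = 1.8e-05, limma).

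Region sp40c_54542 also had its highest value in *cid14Δ*, with 3.26 and 3.77, against 2.36 and 2.82 in *red1Δ*, and the difference of −0.93 did not pass the threshold (adjusted p = 0.099, limma). Only 2 of 8 of its control readings in *cid14Δ* and 3 of 8 in *red1Δ* were well above background. Region sp40c_2116 is among the first 3000 probe numbers, at an end of chromosome 2. It had 4.75 and 5.10 in *rrp6Δ* and 2.56 and 2.95 in *red1Δ*. In *red1Δ* and *cid14Δ* none of its control probes was well above background, and it was at least 1.80-fold higher in *red1Δ* (adjusted p = 5.9e-08, limma) and 1.14-fold higher in *cid14Δ* (adjusted p = 3.2e-06), so that its rise in these mutants cannot be set against that in *rrp6Δ*.

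**Figure D5:**
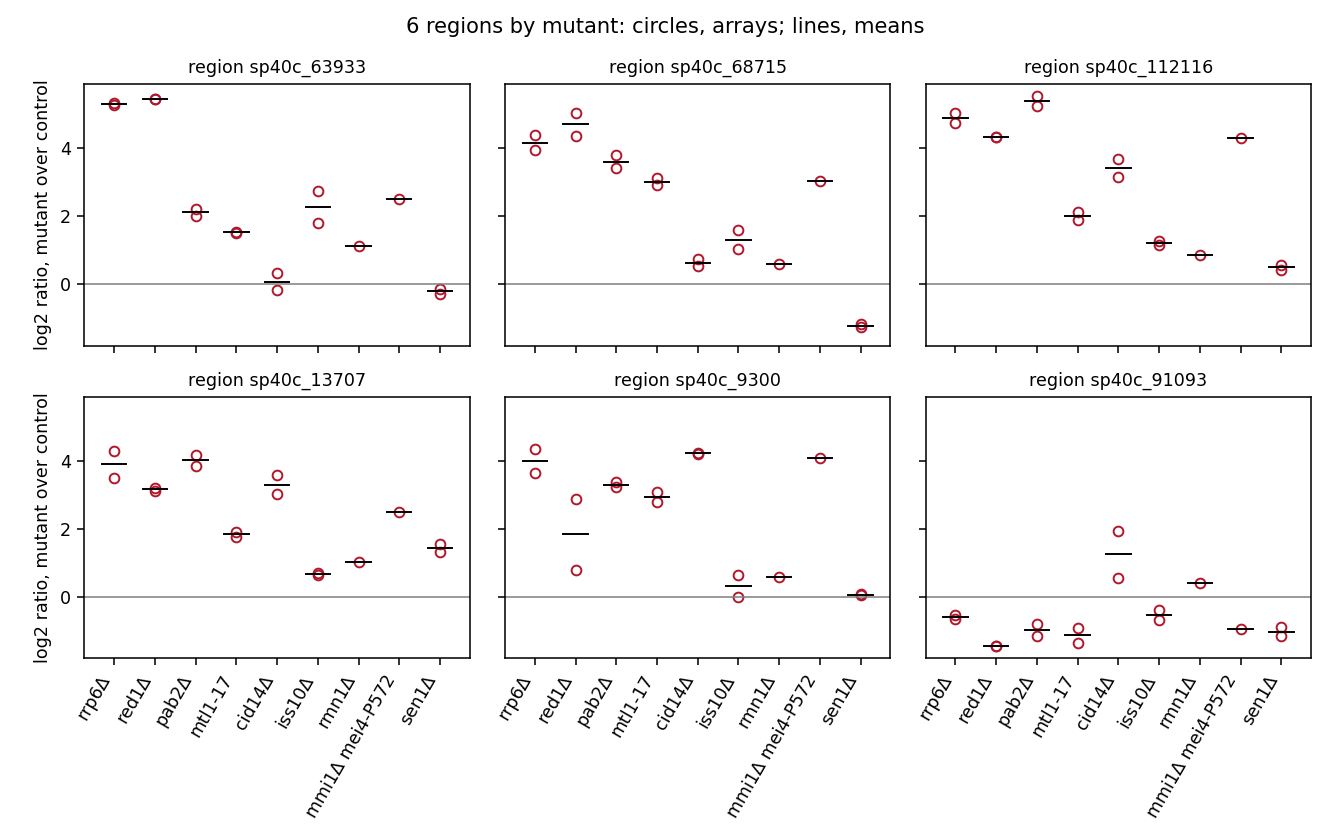
Log2 ratio of mutant over control strain of 6 regions in the 9 mutants. Circles are arrays (2 per mutant, 1 for *rmn1Δ* and *mmi1Δ mei4-P572*) and lines are their means. Regions sp40c_63933 and sp40c_68715 have means of 5.44 and 4.70 in *red1Δ* and of 0.082 and 0.64 in *cid14Δ*, and sp40c_91093 is below 0 in *red1Δ* (−1.45) and above it in *cid14Δ* (1.25).

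The regions with the largest falls in *rrp6Δ* followed units that were called lower as well. Region sp40c_2731, at the same chromosome end, had −3.58 and −3.85 in *rrp6Δ*, −2.75 and −3.41 in *red1Δ*, and −3.39 and −1.60 in *cid14Δ*. In *pab2Δ* it had −2.31 and −2.57. No probe of it was well above background in the mutant channel of *rrp6Δ*, *red1Δ* and *pab2Δ*. The region was at least 4.00-fold lower in *rrp6Δ* (adjusted p = 1.5e-05, limma), 2.07-fold lower in *red1Δ* (adjusted p = 0.00012) and 1.28-fold lower in *pab2Δ* (adjusted p = 0.00095). Its unit had −4.41 in *rrp6Δ*, and since the region's fall is a bound, it cannot be set against that of the unit. The call in *cid14Δ* was lost without replicate 1, and that in *mtl1-17* (−1.61) without either of its replicates.

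Region sp40c_3450 had −2.80 and −1.999 in *rrp6Δ* and −2.42 and −1.97 in *red1Δ*, with its unit at −3.31 and −3.14. Its partner unit on the other strand was higher in both (1.46 and 1.49). The units on either side of this gap of 88 numbers were thus called in opposite directions. Only 2 of 8 mutant readings of the region in *red1Δ* were well above background. Its fall there is thus largely a bound and cannot be set against that of its unit.

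A few regions changed in opposite directions between mutants. Region sp40c_91093 had −1.45 and −1.45 in *red1Δ* and 1.95 and 0.55 in *cid14Δ*, and the difference was −2.70 (SE 0.35, adjusted p = 0.00019, limma). Region sp40c_53405 had 1.83 and 4.73 in *sen1Δ*, 2.33 and 2.14 in *rrp6Δ* and −1.88 and −1.32 in *pab2Δ*, so that the *sen1Δ* arrays lay far apart and above those of *pab2Δ*. Its own unit was called in the same directions, at 3.64 in *sen1Δ* and −2.17 in *pab2Δ*, as was its partner unit (4.10 and −1.39). Region sp40c_113767 had 3.05 and 3.27 in *sen1Δ* and −3.77 and −2.23 in *pab2Δ*, and was the region called lower in *rmn1Δ* (−2.28, adjusted p = 0.045, limma). The own unit of the last region was called in the same directions, at 2.89 in *sen1Δ* and −3.06 in *pab2Δ*. The last region borders a gap of 222 probe numbers close to where the numbers pass from chromosome 2 to chromosome 3, a point the files do not mark, so its partner may not be a neighbour.

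In the mutants with a single array, the largest rises were in regions not described so far. Region sp40c_44062 had 4.73 in *mmi1Δ mei4-P572* (adjusted p = 1.5e-05, limma), against 2.51 and 2.72 in *rrp6Δ* and −0.62 and −1.002 in *sen1Δ*. In *mmi1Δ mei4-P572* its own unit was called higher (1.12) and its partner unit lower (−2.09). Region sp40c_134359 had 2.03 in *rmn1Δ* (adjusted p = 0.020), against 2.26 and 1.46 in *red1Δ*, and the call in *rmn1Δ* was lost with the authors' table of the series (1.93).

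Tested against each other, *red1Δ* and *cid14Δ* differed in both directions. Of the 292 regions, 57 were higher in *red1Δ* than in *cid14Δ* (19.5%, against 19.2% of all features) and 32 lower (10.96%, against 8.71%), which is close to the share over all features. The median difference of *red1Δ* minus *cid14Δ* was −0.041 over the regions and 0.080 over all features. Among the 674 tandem regions, 79 were higher and 97 lower. In all, 89 convergent regions were called in either direction, and 49 without *red1Δ* replicate 1. No slide held an array of both mutants.

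Between *rrp6Δ* and *red1Δ*, 57 regions were higher in *rrp6Δ* (19.5%, against 18.4% of all features) and 21 lower (7.19%, against 6.76%). The median difference of *rrp6Δ* minus *red1Δ* was 0.28 over the regions and 0.15 over all features. Of the tandem regions, 192 were higher in *rrp6Δ* (28.5%) and 17 lower. In all, 78 convergent regions were called, 43 without *rrp6Δ* replicate 1 and 26 without *red1Δ* replicate 1. On the slide that held an array of each, the median difference was 0.22, and 185 of 292 regions were higher on the *rrp6Δ* array.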

How the data were processed

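RNA depleted of rRNA was labelled after reverse transcription with oligo(dT) and random hexamers, and the authors read the arrays with Agilent Feature Extraction 10.7.3.1 (10.7.1.1 in the header of *rrp6Δ* replicate 1). The deposited intensity of each spot is the software's background-subtracted, dye-normalized processed signal, and the deposited log ratio is log10 of Cy5 over Cy3, here mutant over control. The authors' table of the whole series holds log2 ratios and was used as an alternative. Its column for *sen1Δ* replicate 2 did not match that array.

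Ratios were converted to log2, and spots flagged as non-uniform or as population outliers were left out. Each array was centred on the mean over the sense units (−0.28 to 0.084 before centring). A feature was the mean of at least 3 probes. All 16 arrays, from 9 slides, were fitted together with limma, the mutant being the group (7 residual and 5.04 prior degrees of freedom), and tests were two-sided. The number of arrays limits the precision. The bound in an "at least" fold sets a channel with no probe well above background to the lowest signal well above background on that array.

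Regions were named by rank: in each mutant, the largest called changes with the same sign on every array (5 higher and 2 lower in *rrp6Δ*, 3 and 1 in *red1Δ*, *pab2Δ*, *mtl1-17* and *cid14Δ*, 2 higher elsewhere), the 2 highest and 2 lowest in *red1Δ* minus *cid14Δ*, and the 3 called higher in the most mutants. The regions, lists and tests were chosen with earlier results of these data known. The alternatives were normexp (offset 50) with loess, other centrings, a median in place of the mean of a feature's probes, a filter that kept probes well above background on 2 or more arrays, other unit thresholds and windows, units found without the tested control channels, no chromosome end, the series table, slide and replicate blocks, an intensity trend, leaving out each replicate and requiring an absolute log2 ratio of at least 1. The steps were tested on simulated data. The part of the arrays with wider probe spacing was not used. limma 3.58.1 ran under R 4.3.3, and all other steps under Python 3.11.15 (numpy 2.4.6, pandas 2.3.3).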

Additional observations from a re-analysis of the deposited data

Results flagged for a closer look

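The 2 highest and the 2 lowest differences between *red1Δ* and *cid14Δ* were taken from the regions called in the test of that difference (limma). Passing the test was thus part of the choice and is no further result. *red1Δ* minus *cid14Δ* was 5.36 in region sp40c_63933, 4.06 in sp40c_68715, −2.38 in sp40c_9300 and −2.70 in sp40c_91093. Relative to its own unit, sp40c_68715 was not called in this difference (0.56). In sp40c_9300 only 2 of 8 control readings in *red1Δ* and 1 of 8 in *cid14Δ* were well above background. In sp40c_68715 it was 2 of 8 and 4 of 8, and in sp40c_63933 3 of 8 and 5 of 8. In sp40c_91093, 3 of 8 mutant readings in *red1Δ* were. These differences thus rest in part on bounds.

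Among the mutants with 2 arrays, 3 named regions were also called higher in a mutant and lower in another, with every array of each on its side of 0, and the differences between these mutants were not tested. The highest and the lowest mutant are given. *red1Δ* exceeded *sen1Δ* by 5.92 in region sp40c_68715, and *sen1Δ* exceeded *pab2Δ* by 6.16 in sp40c_113767 and by 4.88 in sp40c_53405. In the last region the *sen1Δ* arrays lay apart, at 1.83 and 4.73. Of the mutant readings, only 1 of 8 in *sen1Δ* was well above background in sp40c_68715. In *pab2Δ* it was 2 of 8 in sp40c_113767 and 2 of 8 in sp40c_53405, so these differences rest in part on bounds. In each of these 3 regions the own unit was called in the same directions as the region.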

How the results depend on the processing

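Over 21 counts of regions, 246 of 290 alternative counts stayed within 1.5 times the reported one, and none of 519 alternative values of named regions turned its sign; 5 lost their call, among them sp40c_134359 and sp40c_119025 in *rmn1Δ*. The cause was not tested for any of the changes below, apart from the stricter criterion and the smaller number of arrays.

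With an absolute log2 ratio of at least 1 required, 65 regions were higher in *mtl1-17*, 55 in *cid14Δ* and 12 in *sen1Δ*, and relative to their own unit 71 in *red1Δ*, 58 in *pab2Δ*, 53 in *mtl1-17*, 54 in *cid14Δ* and 8 in *sen1Δ*. With normexp and loess, 63 were higher in *cid14Δ*, and relative to their own unit 60 in *pab2Δ*, 64 in *cid14Δ*, 5 in *iss10Δ*, 18 in *mmi1Δ mei4-P572* and 10 in *sen1Δ*. With the series table, 61 were higher in *cid14Δ*, 1 in *rmn1Δ* and 12 in *sen1Δ*, and relative to their own unit 4 in *iss10Δ*, 0 in *rmn1Δ* and 4 in *sen1Δ*. With the median over probes, 15 were higher in *sen1Δ*, or 8 relative to their own unit. A unit threshold 1 log2 unit lower gave 5 in *iss10Δ*, a threshold 1 higher gave 6 in *rmn1Δ*, and a window of 12 numbers gave 5 in *rmn1Δ*. The convergent median exceeded the tandem median on 1 array with the series table, 5 with the median over probes and 2 with the lower threshold.

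With 1 array left out, the regions called higher numbered 135 to 141 in *rrp6Δ*, 84 to 88 in *red1Δ*, 68 to 76 in *pab2Δ*, 66 to 73 in *mtl1-17*, 54 to 76 in *cid14Δ*, 9 to 11 in *iss10Δ* and 11 to 13 in *sen1Δ*. Relative to their own unit they numbered 127 to 137 in *rrp6Δ*, 70 to 80 in *red1Δ*, 54 to 56 in *pab2Δ*, 47 to 52 in *mtl1-17*, 40 to 73 in *cid14Δ*, 2 in *iss10Δ* and 0 to 11 in *sen1Δ*. Calls in *red1Δ* minus *cid14Δ* numbered 49 to 82, and in *rrp6Δ* minus *red1Δ* 26 to 56. *rmn1Δ* and *mmi1Δ mei4-P572*, with 1 array, have no such value.

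With the replicate number as a block, 159 regions were higher in *rrp6Δ*, 111 in *red1Δ*, 105 in *pab2Δ*, 119 in *mtl1-17*, 99 in *cid14Δ*, 13 in *iss10Δ* and 29 in *sen1Δ*. The numbers did not pair the arrays: over 21 pairs of mutants the deviations of same-numbered arrays correlated between −0.33 and 0.50, 8 pairs above 0.1. Slide as a fixed term could be fitted only for the differences between mutants, with 70 calls in *red1Δ* minus *cid14Δ* and 79 in *rrp6Δ* minus *red1Δ*. Dim probes limit the regions: ratios of probes not well above background are bounds.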
